A study of Caenorhabditis elegans with 2 samples.

Results

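MicroRNA genes outside the heterochronic set are described here: all genes of biotype miRNA in the WBcel235 annotation of Caenorhabditis elegans except lin-4, let-7, mir-48, mir-84 and mir-241. The annotation held 261 miRNA genes, of which 256 were members, 255 of them with at least 1 mature product in RefSeq and F39B1.3 with none. The series maps where DAF-16 sits on chromatin by ChIP-seq, in 1 group of 2 biological replicates, with no treated or mutant group. The animals were whole L4 larvae of mixed sex of strain XE1464, which carries unc-119(ed3) and stably expresses DAF-16 with GFP and FLAG at its C terminus; the labels give the antibody only as daf-16. Whether the native daf-16 gene was also intact is not given in the sources used here. Bound members had a summit of the authors' IDR list at most 1000 bp upstream or 300 bp downstream of the gene start. IDR, the irreproducible discovery rate, is meant to keep peaks that rank alike between replicates. Of all nuclear peaks in the list, 77.3% had a summit within 100 bp in both replicates' own lists. The signal of a peak is the authors' score, which ranks peaks within a list and has no stated scale. In whole larvae, binding in few cells and weak binding in many cannot be told apart.

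DAF-16 is the FOXO transcription factor of the insulin-like signalling pathway of the worm. MicroRNAs are short RNAs cut from a hairpin precursor. They repress mRNAs that pair with their seed, bases 2 to 8 of the mature product, so genes that share a seed can share targets. Several worm miRNAs act in lifespan and stress resistance, the processes DAF-16 is best known for. The annotated gene start is the end of the hairpin, not the start of the longer primary transcript, which can begin far upstream or, for hairpins inside introns, with the host gene.

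Of 44 seeds carried by 2 or more members, 17 had a bound member and 4 had every member bound. Over all members 22.7% were bound, and neighbouring genes with the same seed can share a summit. With a window of 500 bp before and 100 bp after the start, 2 of these 4 stayed fully bound, and none did when each summit counted only for its nearest gene start of any biotype. These products are shown because every gene that carries them was bound; capitals mark the seed, and sequences were read 5′ to 3′ from the RefSeq genome of WBcel235. The first set is the mir-51 family, which is needed in the embryo.
mir-51: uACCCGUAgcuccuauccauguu
mir-52: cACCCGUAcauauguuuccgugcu
mir-53: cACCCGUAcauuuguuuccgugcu
mir-54: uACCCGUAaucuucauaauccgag
mir-55: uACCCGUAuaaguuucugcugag
mir-56: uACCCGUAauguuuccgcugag

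The second set shares the seed of mir-64, and 4 of its 5 hairpins stand in a row on chromosome III.
mir-229: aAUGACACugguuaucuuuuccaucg
mir-64: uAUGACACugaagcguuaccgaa
mir-66: cAUGACACugauuagggauguga
mir-63: uAUGACACugaagcgaguuggaaa

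The third set joins mir-238, whose loss shortens lifespan, to the mir-239 pair, whose loss lengthens it.
mir-238: uUUGUACUccgaugccauucaga
mir-239a: uUUGUACUacacauagguacugg
mir-239b: uUUGUACUacacaaaaguacug

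The fourth pairs mir-83, the worm relative of miR-29, with mir-49. An unbound contrast is mir-35, whose seed was carried by 8 members, none of them bound.
mir-83: uAGCACCAuauaaauucaguaa
mir-49: aAGCACCAcgagaagcugcaga
mir-35: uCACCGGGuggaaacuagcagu

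Peak sequences were read on the strand of the miRNA, 75 bp either side of the summit. They are shown for chosen peaks of these families, the strongest of each among them, for mir-75 and for the peak with both DAF-16 elements. Other family peaks are left out, such as that of mir-63 (120), which holds 1 of these elements. Capitals mark GTAAACA (the DAF-16 binding element, DBE), CTTATCA (the DAF-16 associated element, DAE) and the hexamer TGATAA, on either strand. This hexamer is a GATA site, and the DAE contains it on the other strand. No CACGTG (E-box) stood in these sequences. The mir-238 peak (signal 419, chrIII:8868350-8868500, reverse strand) holds a DAE, as does that of mir-75 (235, chrX:2372300-2372450, forward strand), with a GATA site beside it. The peaks of mir-83 (372, chrIV:7841312-7841462, forward strand) and of mir-239a and mir-239b (299, chrX:11791663-11791813, reverse strand) each hold 1 GATA site. The mir-49 peak (207, chrX:9988949-9989099, forward strand) holds a DBE and a GATA site, and the mir-2213 peak (127, chrIII:6968404-6968554, forward strand) a DBE and a DAE. The peaks of mir-54 to mir-56 (262, chrX:13145381-13145531, reverse strand), mir-53 (260, chrIV:11027719-11027869, reverse strand) and mir-229 to mir-66 (188, chrIII:2172040-2172190, forward strand) hold none of the 4 motifs.
mir-238: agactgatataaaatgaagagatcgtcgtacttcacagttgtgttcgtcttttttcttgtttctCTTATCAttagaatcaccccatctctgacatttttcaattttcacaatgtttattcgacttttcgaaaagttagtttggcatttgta
mir-83: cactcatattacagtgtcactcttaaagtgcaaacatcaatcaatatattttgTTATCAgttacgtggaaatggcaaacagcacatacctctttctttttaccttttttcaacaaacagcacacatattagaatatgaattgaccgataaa
mir-239 pair: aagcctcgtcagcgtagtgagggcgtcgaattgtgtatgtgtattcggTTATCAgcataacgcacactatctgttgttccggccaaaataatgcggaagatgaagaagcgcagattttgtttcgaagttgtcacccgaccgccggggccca
mir-75: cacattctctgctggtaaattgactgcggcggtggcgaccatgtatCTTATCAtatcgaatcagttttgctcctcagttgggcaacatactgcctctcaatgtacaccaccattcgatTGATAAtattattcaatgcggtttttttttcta
mir-49: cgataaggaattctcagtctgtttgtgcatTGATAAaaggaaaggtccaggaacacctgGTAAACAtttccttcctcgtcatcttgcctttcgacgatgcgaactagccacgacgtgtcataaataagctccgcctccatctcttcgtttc
mir-2213: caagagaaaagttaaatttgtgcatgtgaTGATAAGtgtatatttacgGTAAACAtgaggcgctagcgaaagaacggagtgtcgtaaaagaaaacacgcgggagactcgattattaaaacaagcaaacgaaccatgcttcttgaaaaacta
mir-54 to mir-56: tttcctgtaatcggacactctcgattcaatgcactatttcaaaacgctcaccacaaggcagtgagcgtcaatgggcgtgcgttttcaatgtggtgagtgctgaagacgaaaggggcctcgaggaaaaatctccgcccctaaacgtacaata
mir-53: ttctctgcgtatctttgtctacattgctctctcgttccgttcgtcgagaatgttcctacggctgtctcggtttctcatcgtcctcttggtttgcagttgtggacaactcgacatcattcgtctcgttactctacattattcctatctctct
mir-229 to mir-66: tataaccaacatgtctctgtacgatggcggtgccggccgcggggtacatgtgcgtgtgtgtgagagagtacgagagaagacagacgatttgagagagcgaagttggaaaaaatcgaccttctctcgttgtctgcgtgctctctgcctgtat

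DAF-16 peaks lay at miRNA genes about as often as at protein-coding genes. Of the 256 members, 58 were bound (22.7%, 95% Wilson interval 18.0 to 28.2), against 4461 of 19973 protein-coding genes by the same rule on their gene starts (22.3%). The share is near that background, so the count is no result about miRNA genes as a class. Among other non-coding genes, 49 of 194 lincRNA genes (25.3%), 156 of 346 snoRNA genes (45.1%) and 390 of 612 tRNA genes (63.7%) were bound. Of the 5 heterochronic miRNA genes left out, lin-4 and mir-241 were bound. The 58 genes shared 61 summits, of 8748 nuclear summits in the list, and 14 of the genes had 2 or more. The count of bound members was 96 (37.5%, against 32.2% of protein-coding genes) with the authors' pooled list. It was 26 (10.2%, against 16.4%) when each summit counted only for its nearest gene start of any biotype.

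The shares of bound genes in the 4 classes of miRNA genes lay near each other in the 1000 bp window, and further apart by other rules. Single intergenic members were bound at 28 of 117 (23.9%, 17.1 to 32.4), clustered members, with another miRNA gene within 1000 bp on the same strand, at 11 of 52 (21.2%, 12.2 to 34.0), and single members inside an intron of a protein-coding gene on the same strand at 14 of 60 (23.3%, 14.4 to 35.4). The remaining 27, which overlapped a protein-coding gene in another way, had 5 bound (18.5%, 8.18 to 36.7). The intervals overlap widely, cover counting error only and treat neighbouring genes as independent. In the window of 500 bp before and 100 bp after the start the shares were 21.4% for intergenic, 7.69% for clustered, 15.0% for intronic and 3.70% for other genic members, beside 17.2% of protein-coding genes. By the nearest start they were 15.4%, 1.92%, 8.33% and 7.41% in the same order, beside 16.4%.

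**Figure D1:**
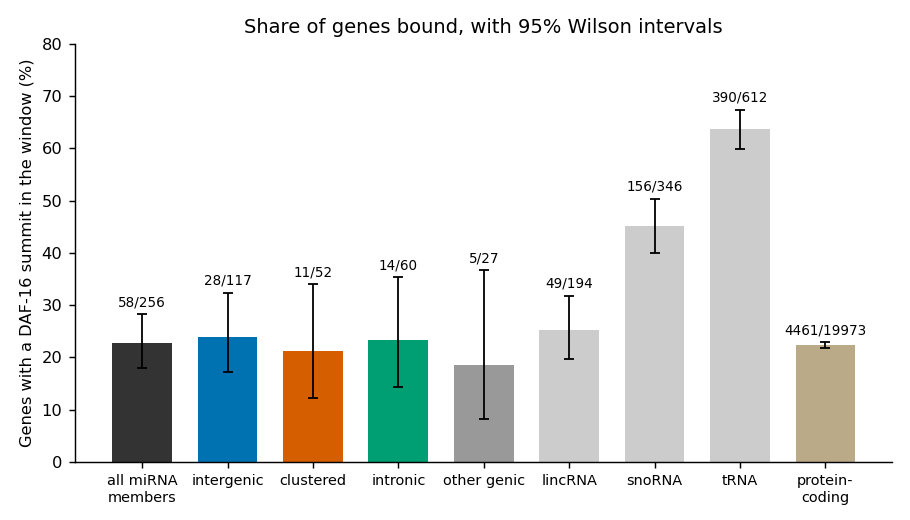
Share of genes (%) with a DAF-16 summit from 1000 bp upstream to 300 bp downstream of the gene start, for all 256 miRNA members, their 4 classes and other gene types, with protein-coding genes at the right; bars are shares, error bars 95% Wilson intervals, and the numbers above them bound genes of all genes. The miRNA classes lie between 18.5% and 23.9%, beside 22.3% for protein-coding genes.

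Of 13 miRNAs listed for roles in ageing and stress, 7 were bound (53.8%, 29.1 to 76.8), beside the 22.7% of all members. With each summit given to its nearest gene start, 3 of the 13 stayed bound, mir-238, mir-60 and mir-80 (23.1%, beside 10.2% of all members). Over all 6 role lists together 14 of 46 were bound (30.4%, beside 22.3% of protein-coding genes and 22.7% of all members). By the nearest start 4 were (8.70%, beside 16.4% and 10.2%), which turns the direction. The other alternatives kept the share above that of protein-coding genes, with 26.1% beside 17.2% in the window of 500 bp before and 100 bp after the start. The ageing and stress list was chosen with earlier results of these data known, and the bound genes include the divergent mir-239 pair, which shares its peaks. The gene mir-238 (WBGene00003331, chromosome III, 8867328 to 8867425, reverse strand) had the strongest peak of any member, with a signal of 419 in the IDR list, 226 in replicate 1 and 170 in replicate 2. Its summit lay exactly at the upstream limit of the window, 1000 bp from the start, and a nearer peak 163 bp upstream had 73.4 in the IDR list and 30.4 in replicate 1, with no counterpart within 100 bp in replicate 2. Inside the window the strongest summit of the replicates' own lists was that of 30.4 in replicate 1 and one of 21.5 in replicate 2, so the 419 peak was counted only because its summit falls on the limit. The neighbouring mir-80 (chromosome III, 8865270 to 8865367, reverse strand), a bantam family member tied to the response to food shortage, had 76.3 at 258 bp upstream, with 22.1 in replicate 1 and 51.6 in replicate 2. A further peak of 136 lay 1017 bp upstream of mir-80, just beyond the window. From 5 kb before mir-80 to 5 kb past it there were 7 summits, all intergenic and also within 5 kb of mir-238.

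The genes mir-239b (chromosome X, 11791302 to 11791399, reverse strand) and mir-239a (11792445 to 11792542, forward strand) are transcribed away from each other and held 2 summits between them. The stronger lay 339 bp upstream of mir-239b and 707 bp upstream of mir-239a, with a signal of 299 in the IDR list, 230 in replicate 1 and 95.8 in replicate 2. The weaker, 189 bp upstream of mir-239a, had 93.0 and carried a DAE. It had a counterpart within 100 bp only in replicate 2 (61.0), while the nearest replicate 1 summit, of 98.1, lay 114 bp from it. Another summit, of 324, past the window at 483 bp downstream of the mir-239a start, also carried a DAE. The gene mir-83 (chromosome IV, 7841631 to 7841728, forward strand), which has been linked to the decline of autophagy with age, had a peak of 372 at 244 bp upstream, with 228 in replicate 1 and 118 in replicate 2, and a weak one of 61.6 at 985 bp upstream.

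The intestinal mir-60 (chromosome II, 6328702 to 6328799, reverse strand), whose loss raises tolerance of long-lasting oxidative stress, had a peak of 141 at 89 bp upstream with a GATA site. Its counterpart had 66.3 in replicate 1 and 17.4 in replicate 2, and the strongest summit anywhere in the window had 66.3 in replicate 1 and 114 in replicate 2. The gene mir-71 (chromosome I, 9379927 to 9380020, reverse strand), which extends lifespan and lies in an intron of the phosphatase subunit gene ppfr-1, had a moderate peak of 102 at 207 bp upstream, with a GATA site. It had 60.2 in replicate 1 and no counterpart within 100 bp in replicate 2, where the strongest summit in the window had 48.7 and lay 103 bp from it. Of 8 summits within 5 kb of mir-71, all in introns, the strongest had 162 and lay 1375 bp upstream. The bound members on this list thus ranged from signals of 76.3 for mir-80 to 419 for mir-238.

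The other 6 genes on that list were not bound. The closest to being bound was mir-34, which acts in the response to DNA damage and in stress resistance: a summit of 307 lay 1172 bp upstream, beyond the window, with 226 in replicate 1 and 138 in replicate 2, and another of 404 lay 1886 bp upstream. The summit nearest to the mir-34 start, of 37.5, lay 576 bp downstream, also beyond the window. Inside it the replicates' own lists held summits of at most 3.89 in replicate 1 and 8.22 in replicate 2. The nearest summit to mir-246, another miRNA that supports lifespan, had 390 and lay 3102 bp upstream, in the start window of the protein-coding gene fic-1. The genes mir-251 and mir-252 had a nearest summit 2885 bp and 2841 bp downstream of the start, and mir-228 and mir-233 had none within 5 kb.

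All 6 members of the mir-51 family were bound, at 4 loci with 6 summits, beside the 22.7% of all members. The loci of mir-51 and mir-53 are neighbours on chromosome IV with summits within 5 kb of both. In the narrower window 4 stayed bound, without mir-55 and mir-56, and with each summit given to its nearest gene start mir-53 alone did. The gene mir-53 (chromosome IV, 11027593 to 11027691) had 260 at 103 bp upstream, with 119 in replicate 1 and 126 in replicate 2. Its neighbour mir-51 had only weak peaks, 54.9 at 779 bp upstream and 51.0 at 83 bp upstream, with 43.1 and 28.3 in replicate 1 and 9.47 and 17.5 in replicate 2. The gene mir-52 had 159 at 847 bp and 101 at 217 bp upstream, with 71.9 and 45.8 in replicate 1 and 102 and 69.1 in replicate 2. The cluster of mir-54, mir-55 and mir-56 (chromosome X, 13144691 to 13145094, reverse strand) shared 1 peak of 262, from 362 bp upstream of mir-54 to 669 bp upstream of mir-56. Its counterpart had 155 in replicate 1 but 21.3 in replicate 2, where the strongest summit in the windows had 102. On the opposite strand, mir-55b (13144830 to 13144919), annotated over the mir-55 hairpin, had its own peak of 200 at 501 bp upstream, with 89.4 and 122. Neither element of DAF-16 nor a GATA site or E-box stood within 75 bp of any of the 6 family summits.

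The mir-35 family, the other miRNA family needed in the embryo, had none of its 8 members bound. The mir-35 to mir-41 cluster (chromosome II, 11537608 to 11538404) had its nearest summit past its end, 463 bp downstream of the mir-41 start and in an exon of Y62F5A.9, with a signal of 72.2 and no counterpart in either replicate. In the windows of mir-35 to mir-38 the replicates' own lists held summits of at most 11.7 in replicate 1 and 5.74 in replicate 2. The gene mir-42 had no summit within 5 kb. The embryonic list as a whole had 6 of 14 bound (42.9%, beside 22.7% of all members), all of them of the mir-51 family and 3 of them by a shared peak, and 1 of 14 (7.14%) by the nearest start.

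All 5 members with the mir-64 seed were bound, at 2 loci, beside the 22.7% of all members. By either of those alternatives mir-229 and mir-63 stayed bound and the other 3 did not. The cluster of mir-229, mir-64, mir-65 and mir-66 (chromosome III, 2172452 to 2173206, forward strand) lies in an intron of gcn-1, a regulator of translation under amino acid shortage. Its 2 summits had 188 at 337 bp and 38.7 at 137 bp upstream of mir-229, and both reached all 4 genes, up to 993 bp from mir-66. The stronger had 142 in replicate 2, while in replicate 1 a summit of 18.5, at 100 bp from each, was the only counterpart and served both. The weaker had no counterpart within 100 bp in replicate 2, where the summit of 142 lay 134 bp from it. The strongest summit in the mir-229 window had 127 in replicate 1. The gene mir-63 (chromosome X, 17598765 to 17598868), intergenic, had 120 at 55 bp upstream with a DAE, with 68.5 in replicate 1 and 29.9 in replicate 2.

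Members that share the mir-72 seed were bound at 3 of 6, beside the 22.7% of all members. The gene mir-72 had 63.4 at 188 bp upstream, with 14.1 in replicate 1 and 32.0 in replicate 2. In the mir-73 and mir-74 cluster (chromosome X, 2368765 to 2369139, forward strand) a weak summit of 37.8 lay 32 bp upstream of mir-73. The strong summit, of 292, lay 212 bp downstream of the mir-74 start, with 188 and 106 in the replicates. Next along the chromosome, mir-75 (2372453 to 2372549) had 235 at 78 bp upstream, with 140 in replicate 1 and 78.7 in replicate 2, while mir-79, which shares its seed, was not bound. The intergenic mir-248 had 366 at 144 bp upstream, with 221 in replicate 1 and 118 in replicate 2. The intergenic mir-49 had 207 at 258 bp upstream, with 105 and 91.1.

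Of 8 members listed for the bantam family, mir-80 and mir-58a were bound, a share near the 22.7% of all members. The gene mir-58a (chromosome IV, 3233254 to 3233350), among the most abundant miRNAs of the worm and inside an intron of Y67D8A.2, had a peak of 115 at 448 bp upstream, with 52.4 in replicate 1 and 45.0 in replicate 2. The genes mir-81, mir-82, mir-58b and the 3 mir-2209 genes were not bound, and of these only mir-82 had a summit within 5 kb, of 448 at 4605 bp upstream. None of the 5 relatives of the left-out heterochronic miRNAs was bound: mir-237, which shares the lin-4 seed, had a summit of 85.4 at 478 bp downstream, and mir-793, mir-794, mir-795 and mir-1821 had none within 5 kb. None of the 5 neuron and muscle miRNAs was bound. The genes lsy-6, which sets taste neuron asymmetry, mir-1 of muscle, mir-124 and mir-273 had no summit within 5 kb, and mir-791, which acts in carbon dioxide sensing, had its nearest 2770 bp downstream with a signal of 483. On the intestine list mir-60 was bound, and mir-240 and mir-786, which time defecation, had no summit within 5 kb.

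**Figure D2:**
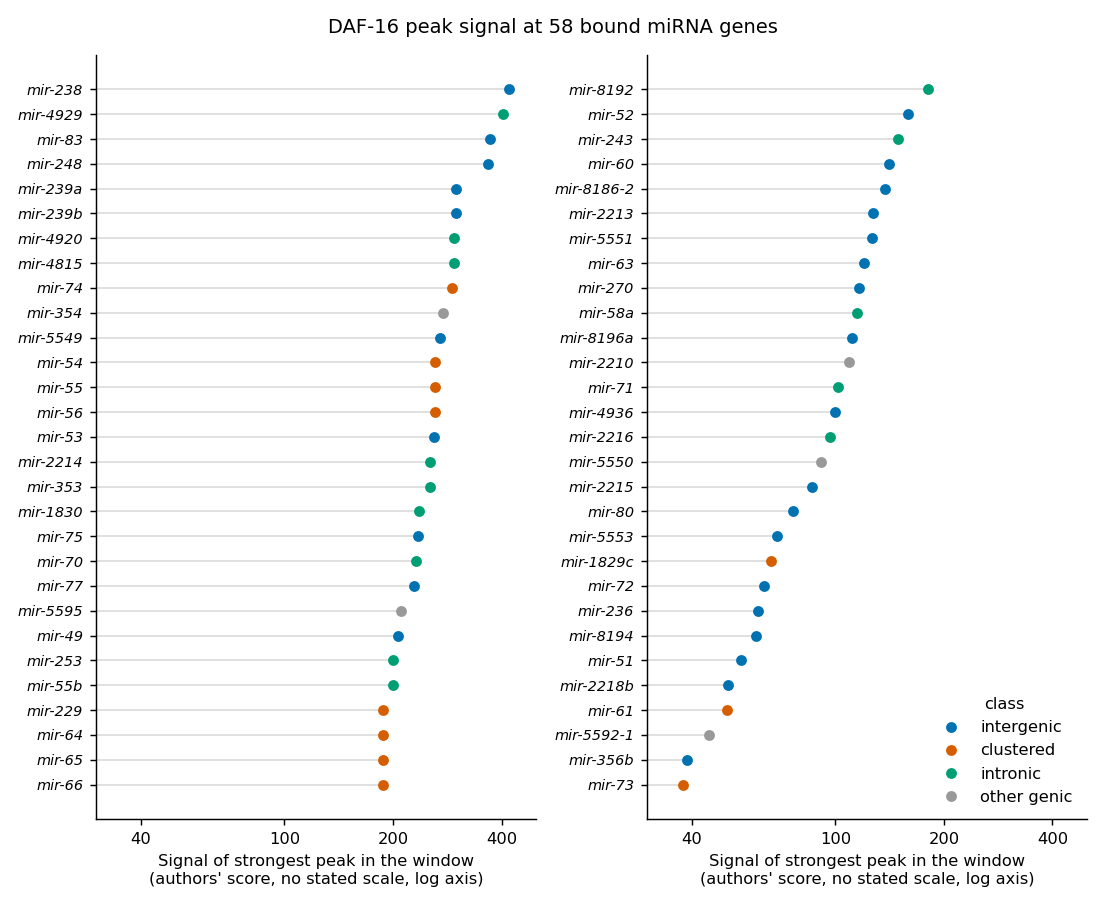
Signal of the strongest DAF-16 peak in the window (authors' score, no stated scale, log axis) of each of the 58 bound miRNA genes, strongest first, coloured by class; 1 point per gene. Signals run from 37.8 at mir-73 to 419 at mir-238, and genes that share a peak, such as mir-54 to mir-56, stand at the same value.

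Among 18 clusters, 5 had a bound member and 3 had every member bound, the gcn-1 intron cluster, mir-54 to mir-56 and mir-73 with mir-74. The other bound clustered members were mir-61, with 50.1 at 892 bp upstream and a counterpart only in replicate 1 (35.2), and mir-1829c, with 66.3 at 248 bp downstream, in an intron of piki-1. The mir-1829c summit also lay in the start window of a tRNA gene. The window reached mir-61, which acts in vulval patterning, but not mir-250 beside it, 1033 bp from the same summit. Clusters of 5 on chromosome X, from mir-4807 to mir-4810b and from mir-1018 to mir-4921, had no bound member.

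Of 14 bound single intronic members, 7 had their strongest peak in the start window of the host gene, and 8 had a peak in no protein-coding start window. Of all nuclear summits, 46.2% lay in some protein-coding start window. That share counts summits at any such start, not genes with a peak at their host start, so it is no direct background for the 7. Among the peaks at a host start, that of mir-4920 in sph-1 had 296, with 177 in replicate 1 and 119 in replicate 2. The peak of mir-4815 in T19E7.6, with a DAE, had 295, with 198 in replicate 1 and 74.0 in replicate 2. At mir-353, in the ribosomal protein gene rpl-24.1, the peak 995 bp upstream had 254, with 173 and 66.9 in the replicates. The replicate 2 summit of 66.9 fell outside the window, in which the strongest of that replicate had 3.34. The host start of mir-1830, the purine synthesis gene paic-1, had 236 and a DAE, with 121 and 115. The host start of mir-70, the ABC transporter gene pmp-5, had 232, with 166 and 57.6. The others were mir-253 in F44E7.5 (200) and mir-243 in R08C7.12 (149). The strongest intronic peak away from any protein-coding start was that of mir-4929, in an intron of E01G4.3, with 403 at 344 bp upstream, 333 in replicate 1, 108 in replicate 2 and an E-box. Next came mir-2214 in B0361.11, with 254 at 29 bp upstream, 128 in replicate 1 and 114 in replicate 2, then mir-55b (200) and mir-8192 in the folliculin gene flcn-1 (181 at 525 bp upstream). Below these stood mir-58a (115), mir-71 (102) and mir-2216 in the GMP synthase gene gmps-1 (96.5 at 322 bp upstream). A second mir-243 peak, of 56.6 at 434 bp upstream, lay in the intron, with a DAE and an E-box.

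The 5 bound members that overlapped protein-coding genes in other ways were mir-354 over rps-20 (275, with 135 in replicate 1 and 120 in replicate 2), mir-5595 over the chromatin remodelling gene nurf-1 (211, with an E-box), and mir-2210 over ZK593.2 (109, with a DBE and an E-box). The remaining ones were mir-5550 over the kinase gene kgb-1 (91.1, with a DAE) and mir-5592-1 over the AMP-activated kinase subunit gene aakb-1 (44.7, with a DAE, at the start of cest-13). Intergenic members whose peak also lay at a protein-coding start were mir-5549 at the elongation factor gene eef-1A.1 (270, with 121 in replicate 1 and 137 in replicate 2), mir-77 (229, with a DAE), mir-8186-2 (137), mir-2213 (127), mir-5551 at nhr-97 (126), mir-270 (116, with a DAE), mir-4936 at nduf-9 (100), mir-5553 (68.7), mir-8194 (60.2) and mir-356b (38.7). The intergenic mir-8196a (111), mir-2215 (86.3, with a DBE), mir-236 (60.9) and mir-2218b (50.5) had peaks at no protein-coding start. The mir-236 peak lay in the start window of another non-coding gene. The hairpins mir-8186-2 and mir-5592-1 are each annotated again on the opposite strand of the same locus, as mir-8186-1 and mir-5592-2, which were not bound.

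Member peaks lay mostly upstream of the hairpin and in intergenic sequence. Of the 61 summits, 55 were upstream of the nearest member start (90.2%), in a window of which the larger part is upstream, and 28 were within 300 bp upstream of one. The distance from the start to the nearest summit had a median of -258 bp over the 58 genes, -176 bp for intergenic and -532 bp for clustered members. Intergenic sequence held 42 of the 61 (68.9%), introns 17 and exons 2, against 60.7% of all nuclear summits in intergenic sequence. A protein-coding start window held 20 of the 61 (32.8%, 22.3 to 45.3), against 46.2% of all nuclear summits. Restricted to summits in no such window, 40 of 256 members were bound (15.6%). This count has no background share among protein-coding genes, since the restriction removes every summit at their starts. It still holds summits in the start windows of other non-coding genes. Examples are those of the mir-239 pair (a snoRNA gene), mir-1829c (a tRNA gene), mir-60, mir-71 and mir-83. The share of summits at such starts was not counted, for members or for all nuclear summits. The median signal was 120 over the 61 peaks (range 37.8 to 419) and 107 over all nuclear peaks (35.4 to 1392).

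**Figure D3:**
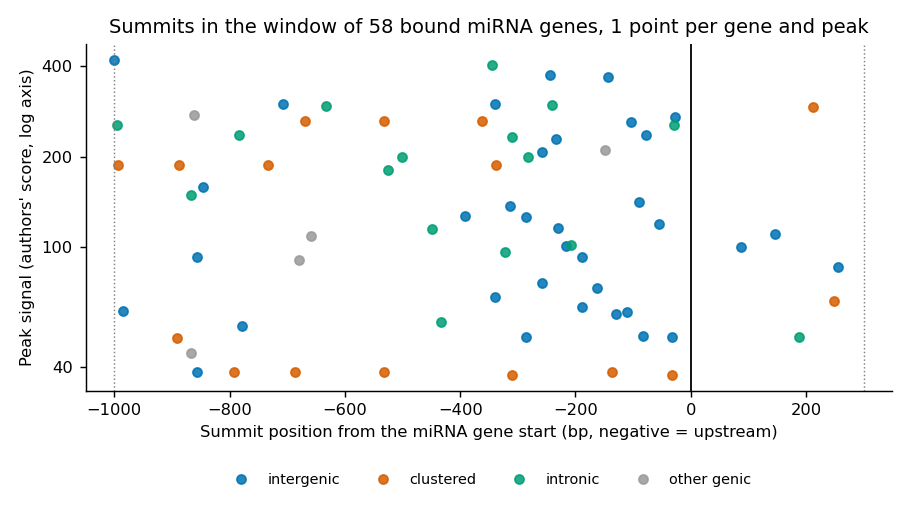
Position of each summit from the start of the miRNA gene (bp, negative upstream; dotted lines are the window limits) against peak signal (authors' score, log axis), 1 point per bound gene and peak, coloured by class. The points lie mainly to the left of the start, with the strongest, mir-238, on the limit at -1000 bp.

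Most member peaks had a counterpart in both replicates. This is in part fixed in advance, because the IDR list was made from the same 2 replicates. The replicates' own lists also include background regions. Of the 61 peaks, 50 had a summit within 100 bp in both replicates' own lists (82.0%, 70.5 to 89.6), against 77.3% of all nuclear peaks. A counterpart within 100 bp stood in replicate 1 for 56 and in replicate 2 for 54, and only the mir-356b peak had none in either. Its nearest summits lay 186 bp away in replicate 1 (28.0) and 131 bp away in replicate 2 (19.9). With a limit of 200 bp, 56 of the 61 peaks matched in both. The peaks of mir-243 (149), mir-71 and mir-61 were among those without one in replicate 2, and those of mir-5551 and mir-4936 among those without one in replicate 1. The 11 peaks not matched in both had a median signal of 73.4 and a highest of 149. Over the 50 matched peaks Spearman's rho of the signals was 0.62 and Pearson's r, on the log2 scale, was 0.58, beside 0.74 and 0.68 over 6758 matched nuclear peaks. These describe peaks, which share libraries and are not replicates. Replicate 1 had a median signal of 79.4 (8.26 to 333) and replicate 2 of 63.8 (5.77 to 170) at these peaks. Of the 58 bound members, 54 were also bound by replicate 2's own strongest 8748 peaks, 56 by replicate 1's, and 52 by both. These counts are no independent support, since the same replicates made the IDR list.

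**Figure D4:**
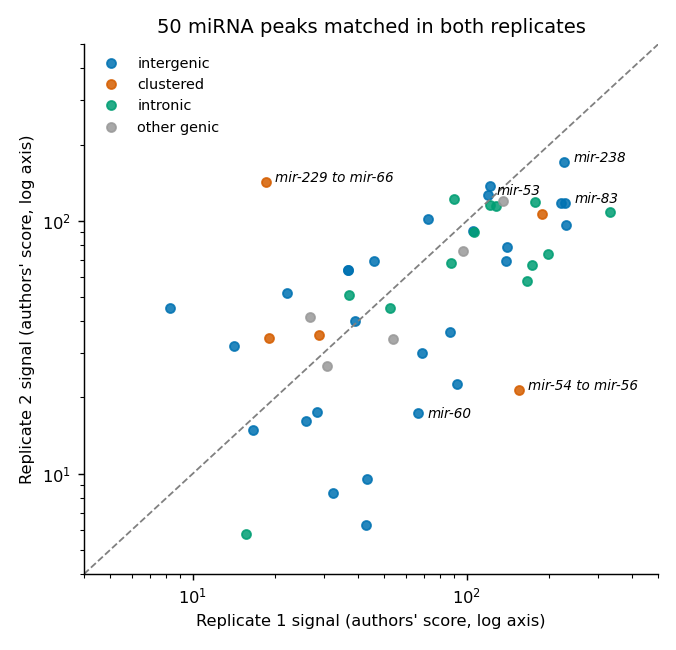
Signal in replicate 1 against replicate 2 (authors' scores of the separate lists, log axes) for the 50 member peaks matched within 100 bp in both, coloured by class; the dashed line marks equal values. The peaks of mir-229 to mir-66 (18.5 and 142) and of mir-54 to mir-56 (155 and 21.3) lie far from it, and mir-238 and mir-83 stand high in both.

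Motifs stood at member peaks about as often as at DAF-16 peaks in general. Within 75 bp of the summit, on either strand, the DBE stood at 4 of 61 member peaks (6.56%, 2.58 to 15.7), those of mir-49, mir-2213, mir-2210 and mir-2215, against 8.94% of all nuclear summits. The DAE stood at 12 (19.7%, 11.6 to 31.3) against 21.8%, and the GATA site at 25 (41.0%, 29.5 to 53.5) against 42.5%, a count that includes the DAE peaks. The E-box stood at 4 (6.56%) against 6.02%. None of the 4 motifs stood at 33 of the 61 peaks (54.1%) or at 48.9% of all nuclear peaks.

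**Figure D5:**
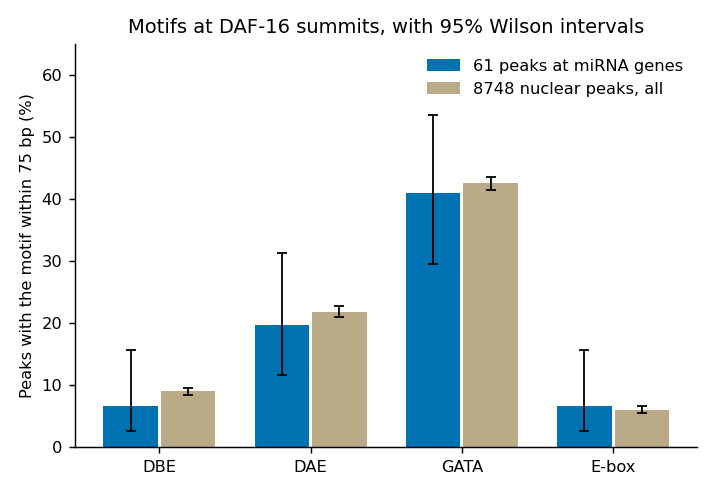
Share of peaks (%) with each motif within 75 bp of the summit, for the 61 peaks at miRNA genes (left bar of each pair) and all 8748 nuclear peaks (right bar); error bars are 95% Wilson intervals. The 4 pairs of intervals overlap.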

How the data were processed

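Chromatin immunoprecipitation of tagged DAF-16 was sequenced in 2 biological replicates of L4 larvae. Peaks were called by the authors against a control on builds ce11 and ce10, per the file headers of the deposited descriptions; which aligner, peak caller, IDR threshold and read depth lie behind them is not stated. The deposited ce11 lists (8777 IDR-thresholded, 22466 pooled, 16146 and 21378 per replicate) give each peak a score, the authors' signal, and a summit offset. The ce10 lists were not used. No list holds read counts, so the precision of single peaks is unknown.

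Summits were joined to the Ensembl release 115 annotation of the same build (WBcel235), nuclear chromosomes only. miRNA genes were named from that annotation, or from RefSeq where its names repeat. Mature products and peak sequences were read from the RefSeq genome and annotation. Mature sequences are printed for the 4 seeds with every member bound, of which that of 1 member is not reported here, and for mir-35. A miRNA gene was clustered when another lay within 1000 bp on its strand, the 5 left-out genes included. Shares are given with 95% Wilson intervals. With 1 group and members not independent of each other, no test was made. The window, matching and motif steps were tested on simulated data and recovered every gene and motif put in. The members, the 6 role lists and the classes were chosen with earlier results of these data known. Every bound member is named; unbound members were named only where they stand on a list, share a cluster or a seed with a bound member, or have a summit just outside the window. Not all of those are named, and the few unbound genes outside this rule were named after their values were seen. Older names on the lists were matched to current ones from general knowledge, not from the annotation (mir-58 and mir-1834 to mir-58a and mir-58b, mir-239.1 and mir-239.2 to mir-239a and mir-239b). Alternatives were other windows, peak sets, overlap rules, cluster distances, matching distances and motif widths. Tables were joined with pandas 2.3.3 and numpy 2.4.6 under Python 3.11.15, intervals came from scipy 1.17.1, and figures from matplotlib 3.10.9.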

Additional observations from a re-analysis of the deposited data

How the results depend on the processing

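Of 73 values under alternatives, 52 stayed within 1.5 times the reported count. When the window was narrowed to 500 bp before and 100 bp after the start, 25 intergenic, 4 clustered, 9 intronic and 1 other genic member were bound, and 39 of 256 in all (15.2%, against 17.2% of protein-coding genes). With the stronger 50% of peaks, 18 intergenic (15.4%) and 3 other genic members (11.1%) were bound, beside 12.3% of protein-coding genes. The pooled list, which holds background regions, gave 96 bound members, beside 32.2% of protein-coding genes. Among them were 25 of 46 on the role lists (54.3%), 21 clustered (40.4%), 27 intronic (45.0%) and 9 other genic (33.3%). Giving each summit to the nearest gene start of any biotype left 26 members, 4 of those on the role lists, 18 intergenic, 1 clustered, 5 intronic and 2 other genic. With clusters set at 5000 or 10000 bp, 17 of 67 (25.4%) or 18 of 79 (22.8%) clustered members were bound. Intergenic members then had 22 of 103 or 22 of 95 bound. The cluster distance changes only the class of a member, not whether it is bound. The DBE count was 7 within 150 bp of the summit (11.5%, against 11.5% of all nuclear summits). The E-box count was 2 within 50 bp (3.28%, against 4.31%) and 7 within 150 bp (11.5%, against 9.40%). Apart from that change of class, the cause of these shifts was not tested. Without replicate 1 and without replicate 2, 61 and 62 members were bound, against 22.0% and 21.2% of protein-coding genes. Each of these 2 alternatives rests on 1 replicate's own strongest peaks. No paired analysis was possible because the series has 1 group. Of the bound members, 8 had summits only within 200 bp inside a limit of the window, and 15 unbound members had a summit within 200 bp outside it.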

Other observations

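Several unbound members lay near strong peaks. The intronic mir-62 had a summit of 626 at 1071 bp upstream, with a DAE and with 387 in replicate 1 and 236 in replicate 2, in the start window of its host ugt-50, a UDP-glycosyltransferase gene. The intergenic mir-269 had 340 at 424 bp downstream, also with a DAE, in the start windows of srh-282 and sma-10. Within 5 kb of mir-34 lay 6 summits, the strongest with 725, a DBE and 480 and 252 in the replicates, in an exon 3389 bp downstream of the start. Of the 198 unbound members, 84 had a summit within 5 kb (42.4%) and 114 had none.

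Some unbound members had summits in the window in both replicates' own lists, which include background regions, without an IDR-thresholded summit: 19 of 198 (9.60%), against 782 of 15512 unbound protein-coding genes (5.04%). Of the 19, 5 are mir-35 to mir-39, neighbours whose windows share their replicate 1 summit signal of 11.7. The highest of the 19 were mir-79 (30.6 in replicate 1 and 16.6 in replicate 2), mir-392 (27.0 and 20.4) and mir-784 (15.4 and 38.5). By chromosome, the share of bound members ran from 4 of 33 on chromosome I (12.1%) to 11 of 27 on chromosome III (40.7%, 24.5 to 59.3), where the gcn-1 intron cluster gives 4 of the 11. Of protein-coding genes, 22.7% were bound on chromosome I and 28.6% on chromosome III, and over the 6 chromosomes the shares ran from 18.7% on V to that 28.6%. Members with miRNA numbers below 1000 were bound at 36 of 132 (27.3%, 20.4 to 35.4), and those numbered 1000 or above at 22 of 123 (17.9%, 12.1 to 25.6). None of these differences was tested.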
